A study of Mus musculus with 10 samples.

Results

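The genes described here carry or prepare the peptides that cells show to T cells. They were taken as all genes whose symbol starts with H2-, the mouse major histocompatibility complex (MHC), and 12 further genes of antigen presentation: B2m, Tap1, Tap2, Tapbp, Tapbpl, Nlrc5, Ciita, Cd74, Psmb8, Psmb9, Psmb10 and Erap1. A gene counted where a transcript cluster, the probe group of the array that stands for 1 transcribed locus, was listed with its symbol alone. This gave 45 of the 22180 genes measured, 34 with an H2- symbol and 11 of the 12 others. Cd74 and the classical class I gene H2-D1 are not analysed here, and 7 clusters listed with several symbols, an H2- symbol among them, were left out. The rule goes by gene names, and it was drawn up with earlier results of these data known. The 4 members with more than 1 cluster were read from the cluster with the highest mean over the arrays. Closely related H2 genes can bind each other's probes, so values of single H2- class I genes are uncertain in that respect.

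MHC class I molecules pair a heavy chain with beta-2-microglobulin and show peptides from the cell's own proteins on nearly all nucleated cells, hepatocytes included. The immunoproteasome cuts these peptides, the TAP transporter moves them into the endoplasmic reticulum, and tapasin and ERAP1 load and trim them. MHC class II molecules show peptides from engulfed material and are made mainly by professional antigen-presenting cells, which in the liver include Kupffer cells, its resident macrophages, and dendritic cells. Interferon-gamma raises both systems, in part through the transactivators NLRC5 for class I and CIITA for class II.

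Transcripts were measured on 10 arrays of fasted male mouse liver, collected around 2 weeks after infection with an adeno-associated virus carrying the TBG promoter, which is active in hepatocytes. The vector carried either Fst288, which encodes the follistatin isoform named for its length, or GFP as its control. Follistatin is secreted and binds activins. The groups were LTKO mice with Fst288 (LTKO FST288, 2 arrays), LTKO mice with GFP (LTKO GFP, 2 arrays), wild-type mice fed a high-fat diet and given Fst288 (HFD FST288, 3 arrays) and such mice given GFP (HFD GFP, 3 arrays). LTKO is not spelled out in the labels, which give neither the diet of the LTKO mice nor strain, H2 haplotype, age, or whether each array is a separate animal, so p-values measure only the spread between these samples. LTKO is known as a liver knockout of the insulin receptor substrates Irs1 and Irs2 together with Foxo1. The difference in genotype between LTKO and HFD mice cannot be told apart from any difference in diet, strain or cohort.

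Values are log2 intensities after robust multi-array averaging (RMA), and differences between groups are differences of log2 values. The medians of the 10 arrays over all clusters lay between 2.71 and 2.75. Irs1, Irs2 and Foxo1 read lower on each LTKO array than on any HFD array, and Fst read higher on each FST288 array than on any GFP array. The 9 measured markers of pancreatic acinar cells had medians of 8.59 and 7.48 on HFD FST288 replicates 2 and 3, against 2.30 to 2.81 on the other 8 arrays. The medians of the 7 hepatocyte markers were 11.49 to 11.75 on LTKO arrays and 12.02 to 12.14 on HFD arrays. For the members, results that use the acinar-high arrays are given with and without them where the call changes. Other genes and cell type markers are given from the fit of all 10 arrays only. Of the 45 members, 26 had a mean at or above 3.12, the median level of all genes (11081 of 22180 genes do), and the other 19 were dim.

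The first comparison asks which members differ with follistatin in wild-type livers on a high-fat diet. None of the 45 members was called, that is, none had an adjusted p under 0.05 (limma, Benjamini-Hochberg over all 22180 genes), where 0.996% of all genes were. An unadjusted p under 0.05 was seen in H2-Q1 and H2-Q5, 2 of 45 members, against 2672 of 22180 genes. Higher calls made up 0.577% of all genes and lower calls 0.419%. The median change of the members was 0.04, against -0.003 for all genes, and the changes ran from -0.55 for H2-Q5 to 0.31 for H2-M3. H2-K1 had values of 9.80, 9.80 and 9.80 on HFD FST288 arrays, against 9.55, 9.53 and 9.49 on HFD GFP arrays. The groups did not overlap, but the change of 0.28 ± 0.16 (SE) had an adjusted p of 0.544. When only these 6 arrays were fitted, it had an adjusted p of 0.0219 and was the only member called.

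In LTKO livers, 3 members were higher with follistatin. H2-T23, the gene of Qa-1, a non-classical class I molecule that inhibits natural killer cells through NKG2A, was 2.90-fold higher. H2-Q4, another non-classical class I gene of the Q region, was 2.76-fold higher, and H2-Eb1, the beta chain of the class II molecule I-E, was 4.45-fold higher. These 3 of 45 stand beside 0.167% of all genes called, 0.0992% higher and 0.0676% lower. A further 17 members had an unadjusted p under 0.05 without a call, so 20 of 45 did, against 2213 of 22180 genes. The median change was 0.30 for the members and -0.02 for all genes. Of the 45 members, 37 had a change above 0, against 46.3% of all genes. Without LTKO FST288 replicate 1, 14 members were called beside 1.07% of all genes, and without replicate 2, H2-Q4 and H2-T23 were, beside 0.212%. In a fit without 1 array of a pair, the lone array is assumed to vary like the other groups. None of the 3 calls held without HFD FST288 replicates 2 and 3, where calls over all genes also became fewer. These arrays are not part of this comparison. Leaving them out keeps the changes as they are and alters only the spread and degrees of freedom of the fit.

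LTKO livers differed from HFD livers under GFP in 7 members, 5 lower and 2 higher, where 13.1% of all genes were called. H2-T23 was 4.0-fold lower, H2-Eb1 2.68-fold, the Q-region pseudogene H2-Q5 2.31-fold, H2-Q4 2.15-fold and the classical heavy chain H2-K1 1.64-fold. H2-T10, annotated as a transcribed pseudogene of the T region, was 2.25-fold higher, and H2-Ke6, an oxidoreductase gene named for its place in the complex, was 1.71-fold higher. The lower calls were 5 of 45 members beside 6.4% of all genes, and the higher calls 2 of 45 beside 6.69%. The median change was -0.11 for the members and 0.01 for all genes. Leaving out either LTKO FST288 array, which leaves these changes as they are and alters only the fitted spread, brought the count to 12, beside 13.7% of all genes, with Erap1, Psmb8, Psmb9, Psmb10 and Tap1 among the lower members.

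Under Fst288, 4 members were higher in LTKO than in HFD livers and none was lower, where 10.3% of all genes were called, 5.05% higher and 5.29% lower. H2-Ab1 and H2-Aa, the beta and alpha chains of the class II molecule I-A, were 6.04-fold and 4.73-fold higher. H2-T10 was 2.32-fold and H2-Ke6 1.42-fold higher. The median change was 0.18 for the members and -0.0002 for all genes. Without LTKO FST288 replicate 1, 11 members were higher and none lower, beside 8.46% of all genes called. Without replicate 2, where 6.91% of all genes were called, H2-Aa, H2-Ab1 and H2-T10 were higher and Erap1, H2-T23, Psmb8, Psmb9 and Psmb10 lower. Psmb8 was thus called in opposite directions, at 0.76 without replicate 1 (adjusted p = 0.00277) and -0.67 without replicate 2 (adjusted p = 0.00954). Without HFD FST288 replicates 2 and 3, H2-Ab1 and H2-T10 kept their calls, and calls over all genes also became fewer. That fit leaves only replicate 1 of HFD FST288.

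The response to follistatin itself differed between LTKO and HFD livers in 2 members, where 0.216% of all genes were called. The difference of the changes, LTKO minus HFD, was 1.66 ± 0.28 for H2-Q4 (adjusted p = 0.0348) and 1.62 ± 0.30 for H2-T23 (adjusted p = 0.0495). H2-Eb1, at 2.33 ± 0.48, had an adjusted p of 0.0779. The calls did not hold in most fits without 1 array. H2-Q4 was lost in 6 of 10, those that dropped any of the HFD GFP arrays, replicates 2 and 3 of HFD FST288 or replicate 2 of LTKO GFP, with adjusted p up to 0.111. H2-T23 was lost in 8 of 10, each of them but those without an LTKO FST288 array, with adjusted p up to 0.151. With the replicate number as a block, the adjusted p was 0.0718 for H2-Q4 and 0.0889 for H2-T23. Neither was called without HFD FST288 replicates 2 and 3.

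**Figure D1:**
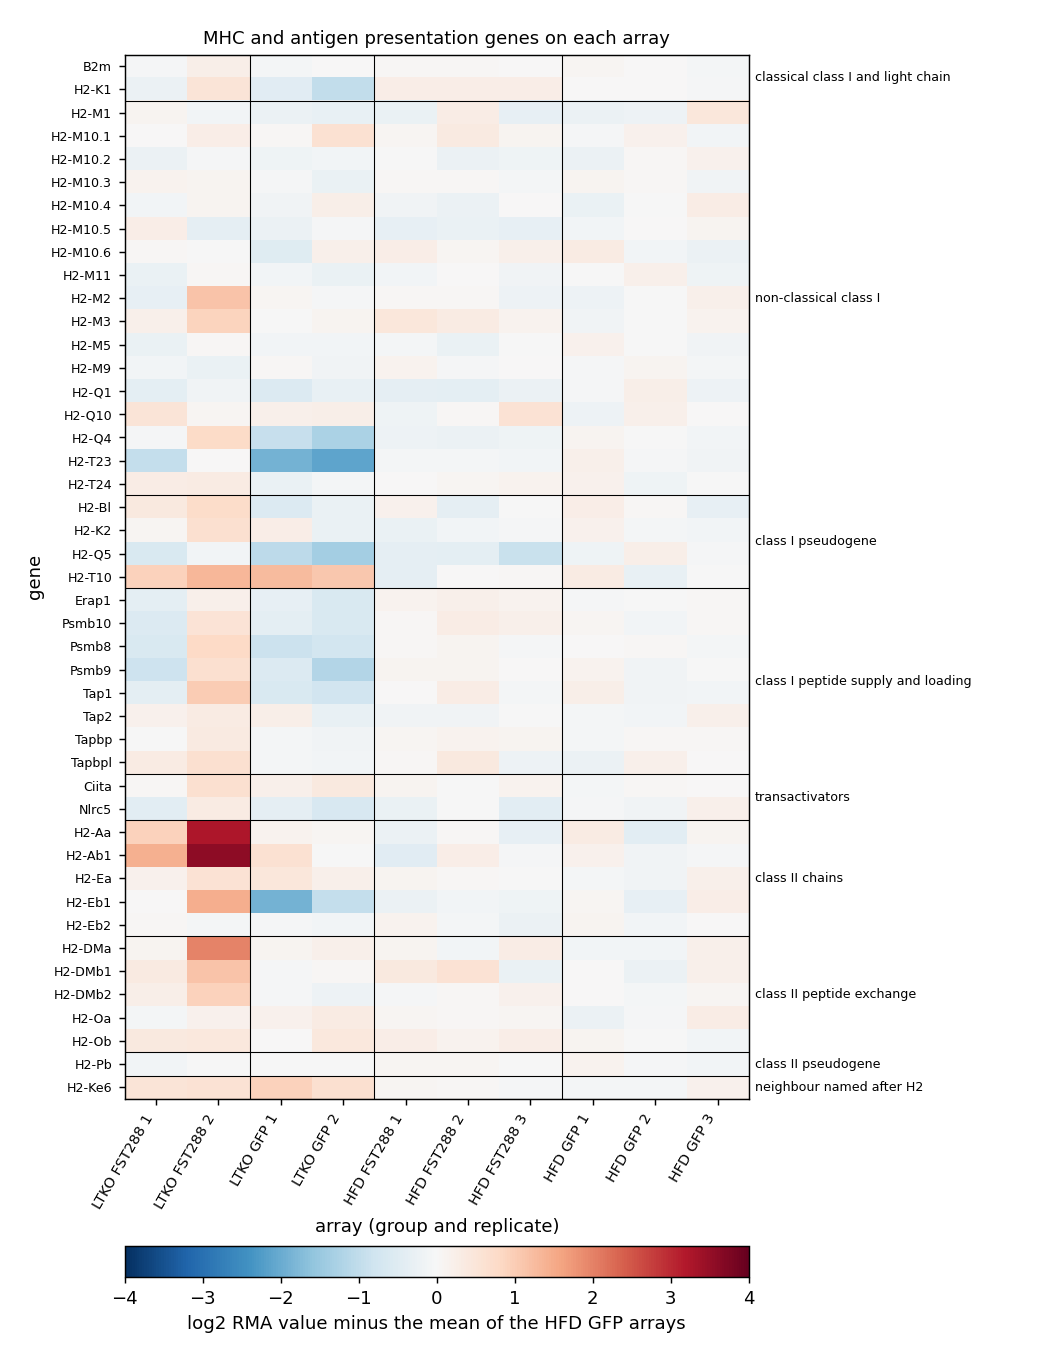
Log2 value of each of the 45 members on each of the 10 arrays (columns, grouped as LTKO FST288, LTKO GFP, HFD FST288 and HFD GFP), minus the gene's mean over the 3 HFD GFP arrays; rows are grouped by role. LTKO FST288 replicate 2 is red in most class II chain, peptide exchange and peptide supply genes, and both LTKO GFP arrays are blue for H2-T23, H2-Q4 and H2-Q5.

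Among the class I genes, H2-K1 encodes the classical heavy chain of H-2K and B2m the light chain that all class I heavy chains share. The 250 bases before their annotated starts are shown together with those of H2-T23 and H2-Q4, the members called in LTKO livers, because class I promoters share short elements through which interferons and NLRC5 act. The sequences are those of RefSeq on GRCm38.p6, at chr17:34000348-34000597, minus strand, for H2-K1, at chr2:122147437-122147686, plus strand, for B2m, at chr17:36032702-36032951, minus strand, for H2-T23 and at chr17:35379367-35379616, plus strand, for H2-Q4, each 5′ to 3′ on the gene's strand.
H2-K1: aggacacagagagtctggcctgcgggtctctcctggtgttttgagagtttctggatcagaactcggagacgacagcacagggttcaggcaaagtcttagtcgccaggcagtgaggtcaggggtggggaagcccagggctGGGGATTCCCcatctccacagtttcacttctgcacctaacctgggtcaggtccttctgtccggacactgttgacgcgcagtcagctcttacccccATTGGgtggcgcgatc
B2m: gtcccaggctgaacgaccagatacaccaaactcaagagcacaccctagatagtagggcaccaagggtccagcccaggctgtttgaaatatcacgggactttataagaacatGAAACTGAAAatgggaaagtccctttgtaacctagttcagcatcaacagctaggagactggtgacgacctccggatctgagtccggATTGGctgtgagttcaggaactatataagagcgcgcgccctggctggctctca
H2-T23: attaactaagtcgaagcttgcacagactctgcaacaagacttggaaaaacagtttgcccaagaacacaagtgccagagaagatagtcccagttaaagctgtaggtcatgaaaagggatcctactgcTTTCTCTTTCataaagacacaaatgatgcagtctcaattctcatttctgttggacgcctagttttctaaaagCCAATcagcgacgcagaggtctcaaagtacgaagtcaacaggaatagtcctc
H2-Q4: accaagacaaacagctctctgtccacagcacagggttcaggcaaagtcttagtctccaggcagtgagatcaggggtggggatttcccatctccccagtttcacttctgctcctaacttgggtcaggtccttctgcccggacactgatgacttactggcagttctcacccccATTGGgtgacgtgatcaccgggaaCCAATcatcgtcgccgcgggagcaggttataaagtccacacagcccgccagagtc
Capitals mark each match, on either strand, to 5 motifs: the core of the interferon-stimulated response element (ISRE), which is GAAA, any pair of bases and GAAA again; TTCNNNGAA, the gamma-activated site of interferon-gamma targets; the kappa B element of class I enhancers, spelled as the first run of capitals in H2-K1; TAGCAAC, part of the class II X box; and CCAAT, the box bound by NF-Y. The first run of capitals is the ISRE core in B2m and the same motif on the other strand in H2-T23, and the ATTGG and CCAAT runs are the CCAAT box. No 2 matches overlapped in these windows. Of the 45 members, 32 had a promoter entry. The ISRE core stood in 2 of the 32, B2m and H2-T23, and in 3.46% of all 27025 genes with an entry. The kappa B element stood in H2-K1 alone of the 32 and in 0.0999% of all genes, TTCNNNGAA in 4 of the 32 (H2-DMb2, H2-M3, H2-M11 and Psmb8) and in 8.13%, and CCAAT in 27 of the 32 and in 37.5%. Only these spellings were counted, so a window without a match may hold other spellings of the same element. A match is a description of the letters and not a site of binding.

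H2-K1 read 9.30 and 10.05 in LTKO FST288 livers, against 9.08 and 8.54 in LTKO GFP livers. In HFD livers it read 9.80 on each FST288 array, against 9.49 to 9.55 on the GFP arrays. Both LTKO GFP arrays thus lay under all other arrays, and the LTKO FST288 arrays lay on either side of the HFD arrays. LTKO GFP livers averaged 8.81 ± 0.38 and HFD GFP livers 9.53 ± 0.03 (SD, n = 2 and 3), a change of -0.72 ± 0.18 (SE, adjusted p = 0.0161). The call was lost without LTKO GFP replicate 2, at -0.45 (adjusted p = 0.205). The change with Fst288 in LTKO livers was 0.87 ± 0.19 (adjusted p = 0.14), and 1.24 without LTKO FST288 replicate 1 (adjusted p = 0.00119). B2m read 12.62 and 12.88 in LTKO FST288 livers, against 12.58 and 12.67 in LTKO GFP livers, and 12.58 to 12.72 on the 6 HFD arrays. Its largest group change was 0.12 ± 0.08, and none was called. B2m is near the top of the range of these arrays, where the highest value was 13.21.

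H2-T23 read 6.09 and 7.07 in LTKO FST288 livers, against 5.14 and 4.94 in LTKO GFP livers. It read 6.97, 6.98 and 6.92 in HFD FST288 livers, against 7.24, 6.98 and 6.89 in HFD GFP livers. LTKO GFP stood alone at the bottom, the HFD groups overlapped, and of the LTKO FST288 arrays replicate 2 lay within the HFD range and replicate 1 under it. Means were 5.04 ± 0.15 in LTKO GFP and 7.04 ± 0.18 in HFD GFP livers (SD, n = 2 and 3), and the change of -2.00 ± 0.21 (SE) had an adjusted p of 2.57e-05. This call held in each of the 10 fits without 1 array, with changes from -2.10 to -1.89. The change with Fst288 in LTKO livers, 1.54 ± 0.23 (adjusted p = 0.0167), shares the LTKO GFP arrays with it. It was 2.03 without LTKO FST288 replicate 1 and 1.05 without replicate 2, and the call was lost without LTKO GFP replicate 1 (adjusted p = 0.0537) or 2 (0.0997). In HFD livers the change was -0.08 ± 0.19 (adjusted p = 0.911).

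H2-Q4 read 5.80 and 6.64 in LTKO FST288 livers, against 4.92 and 4.59 in LTKO GFP livers. It read 5.66, 5.62 and 5.70 in HFD FST288 livers, against 5.98, 5.84 and 5.75 in HFD GFP livers. As for H2-T23, both LTKO GFP arrays were the lowest of the 10. LTKO GFP livers averaged 4.76 ± 0.23 and HFD GFP livers 5.86 ± 0.12 (SD, n = 2 and 3), a change of -1.10 ± 0.19 (SE, adjusted p = 0.00184). With Fst288 in LTKO livers the change was 1.46 ± 0.21 (adjusted p = 0.0151), and the call was lost without LTKO GFP replicate 2 (adjusted p = 0.0943). H2-Q4 had a second, dimmer cluster. With the mean of both clusters these changes were -0.49 (adjusted p = 0.0808) and 0.90 (adjusted p = 0.117). A mean of -0.49 beside -1.10 in the brighter cluster means that the dimmer cluster changed in the opposite direction. The lower call of H2-Q4 is thus that of the brighter cluster alone. With Fst288 in LTKO livers both clusters were higher, the dimmer one by less.

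The other 15 non-classical class I genes, mostly of the M and Q regions, were not called in any comparison. H2-Q10, a secreted class I molecule of the liver, read 7.58 and 7.14 in LTKO FST288 livers, against 7.27 and 7.30 in LTKO GFP livers, and 6.85 to 7.64 in HFD livers. H2-M3, which presents formylated bacterial peptides, read 3.93 and 4.64 in LTKO FST288 livers, against 3.72 and 3.84 in LTKO GFP livers. H2-M2 read 3.26 on LTKO FST288 replicate 2 and 1.78 to 2.32 on the other arrays. H2-M1, H2-M9, H2-M11 and the 6 H2-M10 genes had no array above 2.92, and H2-M5, H2-Q1 and H2-T24 read 2.71 to 3.16, 4.80 to 5.57 and 2.82 to 3.41 over the 10 arrays. In mice the M10 genes are known from vomeronasal neurons.

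Of the class I pseudogenes, H2-Q5 read 3.57 and 4.08 in LTKO FST288 livers, against 3.12 and 2.82 in LTKO GFP livers. It read 3.82, 3.78 and 3.29 in HFD FST288 livers, against 3.995, 4.40 and 4.14 in HFD GFP livers. Both LTKO GFP arrays were under all other arrays, and the change against HFD GFP was -1.21 ± 0.21 (SE, adjusted p = 0.00149). H2-T10 went the other way and read 4.29 and 4.71 in LTKO FST288 and 4.64 and 4.47 in LTKO GFP livers, against 3.04, 3.41 and 3.42 in HFD FST288 and 3.71, 3.08 and 3.36 in HFD GFP livers. Each LTKO array was above each HFD array. The change was 1.17 ± 0.20 under GFP (adjusted p = 0.00149) and 1.21 ± 0.20 under Fst288 (adjusted p = 0.00122), and these calls of H2-Q5 and H2-T10 held in each of the 10 fits without 1 array. In strains where it is a gene, T10 encodes a ligand of some gamma-delta T cell receptors. H2-K2 and H2-Bl were not called.

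**Figure D2:**
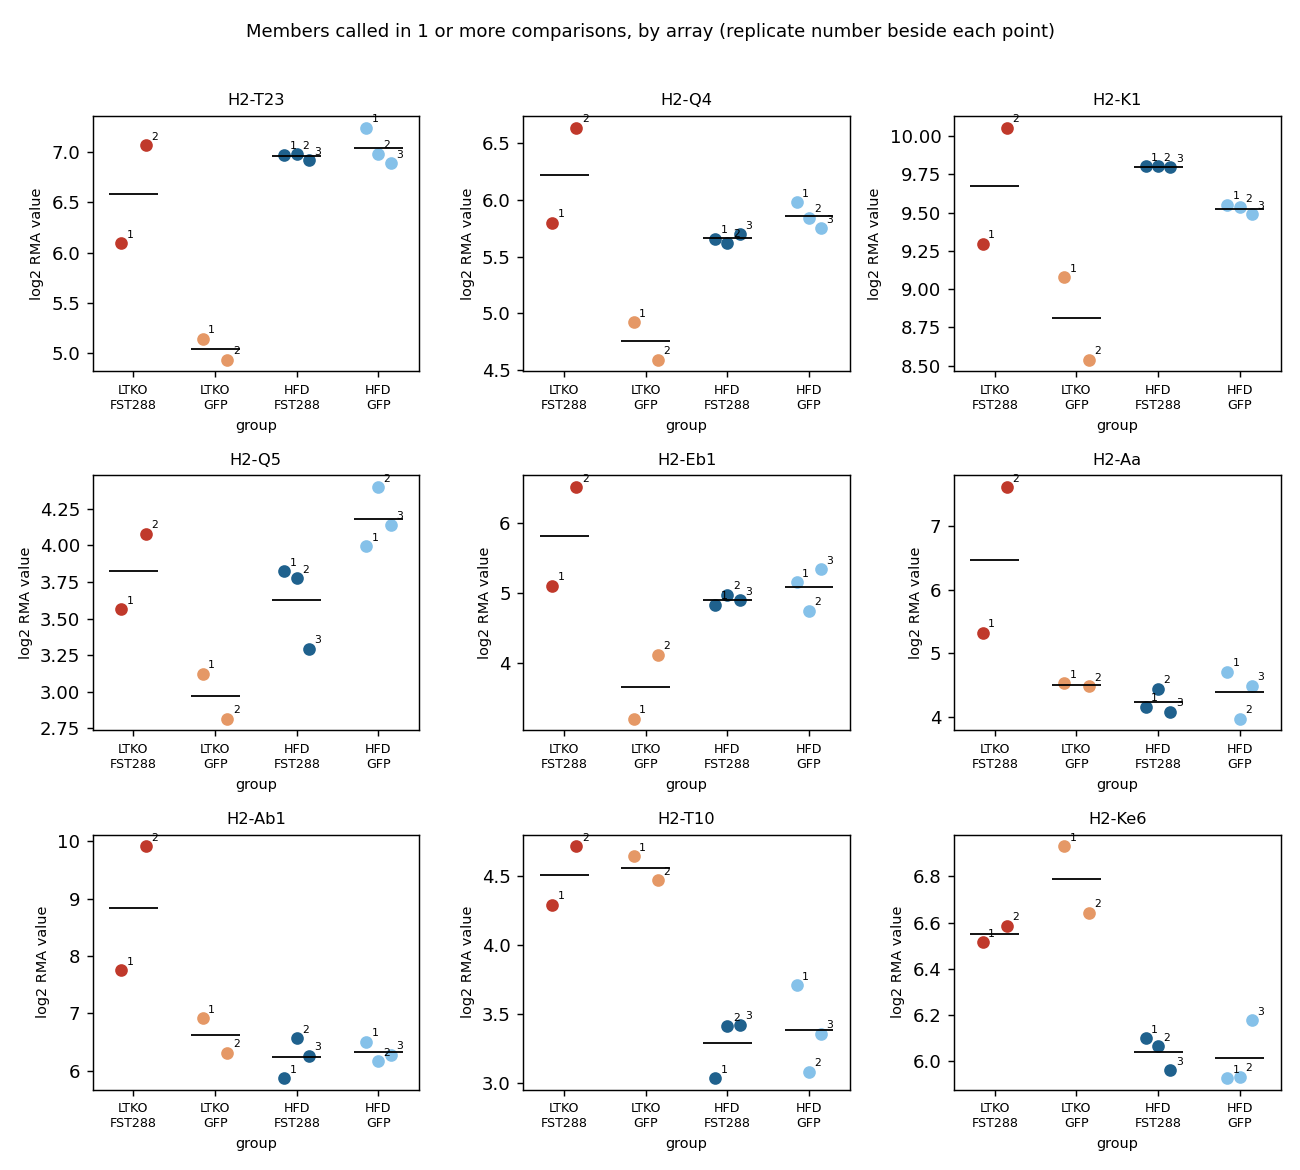
Log2 RMA values of the 9 members called in 1 or more comparisons, 1 point per array with its replicate number and a line at the group mean, for LTKO FST288, LTKO GFP, HFD FST288 and HFD GFP. The LTKO GFP points are the lowest for H2-T23, H2-Q4, H2-K1, H2-Q5 and H2-Eb1, and the LTKO FST288 points are the highest for H2-Aa and H2-Ab1. Each panel has its own vertical scale, which does not start at 0.

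The 8 genes of class I peptide supply and loading showed no call. Their changes with Fst288 were all above 0 in LTKO livers, from 0.29 to 0.99 with a median of 0.55, and 6 of the 8 had an unadjusted p under 0.05. Their changes in LTKO against HFD livers under GFP were all below 0, from -0.85 to -0.03 with a median of -0.48, and 5 of the 8 had an unadjusted p under 0.05. Over all genes, the unadjusted p was under 0.05 in 9.98% and 25.2%, in the same order. Both comparisons use the LTKO GFP arrays. Psmb8, an inducible subunit of the immunoproteasome, read 5.56 and 6.99 in LTKO FST288 livers, against 5.33 and 5.46 in LTKO GFP livers. It read 6.14 to 6.29 in HFD FST288 livers, against 6.11 to 6.24 in HFD GFP livers. LTKO FST288 replicate 1 and both LTKO GFP arrays lay under the HFD range and LTKO FST288 replicate 2 over it. The change with Fst288 in LTKO livers was 0.88 ± 0.30 (adjusted p = 0.346). It was 1.59 without replicate 1 (adjusted p = 8.42e-05) and 0.16 without replicate 2 (adjusted p = 0.831).

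Psmb9, another inducible subunit, read 4.46 and 5.94 in LTKO FST288 livers, against 4.75 and 4.13 in LTKO GFP livers and 5.15 to 5.44 on HFD arrays. Tap1, 1 chain of the peptide transporter, read 5.22 and 6.65 in LTKO FST288 livers, against 5.02 and 4.87 in LTKO GFP livers and 5.47 to 5.92 on HFD arrays. In both genes 3 LTKO arrays were under the HFD arrays and LTKO FST288 replicate 2 was over them, as in Psmb8. Psmb10, the third inducible subunit, read 5.76 and 6.84 in LTKO FST288 livers, against 5.91 and 5.67 in LTKO GFP livers and 6.18 to 6.58 on HFD arrays, the same order. Erap1, an aminopeptidase that trims peptides, read 7.41 and 7.996 in LTKO FST288 livers, against 7.48 and 7.19 in LTKO GFP livers. Its change in LTKO against HFD livers under GFP was -0.46 ± 0.14 (adjusted p = 0.0517), the nearest to a call of this group. Tap2, Tapbp and Tapbpl, the other transporter chain, tapasin and its relative, had changes between -0.12 and -0.03 in that comparison. Nlrc5, the class I transactivator, read 3.41 and 4.19 in LTKO FST288 livers, against 3.49 and 3.20 in LTKO GFP livers and 3.44 to 4.05 on HFD arrays, and was not called.

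Psmb9 and Tap1 start from opposite strands of 1 shared stretch, and their arrays stood in a like order, so that stretch is shown. It holds the 225 bases between the RefSeq starts, at chr17:34187331-34187555, plus strand, on GRCm38.p6, 5′ to 3′ in the direction of Tap1, with capitals for the same motifs.
Psmb9 and Tap1: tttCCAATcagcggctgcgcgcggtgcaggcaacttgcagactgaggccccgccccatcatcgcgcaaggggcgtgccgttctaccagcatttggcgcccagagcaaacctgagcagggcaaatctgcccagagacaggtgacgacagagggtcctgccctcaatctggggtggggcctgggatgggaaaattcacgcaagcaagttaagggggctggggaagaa
It held 1 CCAAT box near the Psmb9 start and none of the other 4 motifs, which says only that those letters are not in this window.

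MHC class II chains had the 3 largest changes of the members with Fst288 in LTKO livers. H2-Ab1 read 7.75 and 9.91 in LTKO FST288 livers, against 6.92 and 6.32 in LTKO GFP livers. It read 5.88, 6.57 and 6.26 in HFD FST288 livers, against 6.51, 6.17 and 6.28 in HFD GFP livers. Both LTKO FST288 arrays were above the other 8, and the arrays of that group stood 2.16 apart. LTKO FST288 livers averaged 8.83 ± 1.53 and HFD FST288 livers 6.24 ± 0.35 (SD, n = 2 and 3), a change of 2.59 ± 0.43 (SE, adjusted p = 0.00125). It was 3.68 without LTKO FST288 replicate 1 (adjusted p = 9.45e-07) and 1.51 without replicate 2 (adjusted p = 0.00228). Against LTKO GFP livers the change was 2.21 ± 0.47 (adjusted p = 0.121), which was called only without LTKO FST288 replicate 1.

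H2-Aa read 5.32 and 7.61 in LTKO FST288 livers, against 4.52 and 4.48 in LTKO GFP livers. It read 4.15, 4.44 and 4.07 in HFD FST288 livers, against 4.71, 3.97 and 4.49 in HFD GFP livers. The order of the arrays was that of H2-Ab1 at the top, with both LTKO FST288 arrays above the rest. LTKO FST288 livers averaged 6.47 ± 1.62 and HFD FST288 livers 4.22 ± 0.19 (SD, n = 2 and 3), a change of 2.24 ± 0.45 (SE, adjusted p = 0.00491). It was 3.39 without LTKO FST288 replicate 1 (adjusted p = 1.49e-06) and 1.09 without replicate 2 (adjusted p = 0.0163). Without HFD FST288 replicates 2 and 3 the call was lost at 2.31 (adjusted p = 0.0907), and with the acinar marker median as a covariate likewise at 2.31 (adjusted p = 0.0568).

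H2-Eb1 read 5.11 and 6.52 in LTKO FST288 livers, against 3.20 and 4.12 in LTKO GFP livers. It read 4.83, 4.98 and 4.90 in HFD FST288 livers, against 5.16, 4.75 and 5.34 in HFD GFP livers. It differed from the I-A chains in that both LTKO GFP arrays were the lowest of the 10 and LTKO FST288 replicate 1 lay within the HFD range. The change with Fst288 in LTKO livers was 2.15 ± 0.37 (SE, adjusted p = 0.042). This call was lost in 8 of 10 fits without 1 array, with adjusted p from 0.0634 to 0.173. The change was 1.44 without LTKO FST288 replicate 2 and 1.69 without LTKO GFP replicate 1, and 2.15 without an HFD array. LTKO against HFD livers under GFP gave -1.42 ± 0.34 (adjusted p = 0.0126), a call that did not hold when HFD GFP replicate 3 (adjusted p = 0.0506) or LTKO GFP replicate 1 (-0.96, adjusted p = 0.169) was dropped. H2-Ea, annotated as a transcribed pseudogene, and H2-Eb2 were dim and not called, nor was the class II pseudogene H2-Pb.

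The 250 bases before the starts of H2-Eb1 and H2-Aa are shown because the chains differed in LTKO GFP livers. They lie at chr17:34305617-34305866, plus strand, and at chr17:34287824-34288073, minus strand, on GRCm38.p6 in RefSeq, printed 5′ to 3′ on the gene's strand with capitals as above. H2-Ab1 is named only.
H2-Eb1: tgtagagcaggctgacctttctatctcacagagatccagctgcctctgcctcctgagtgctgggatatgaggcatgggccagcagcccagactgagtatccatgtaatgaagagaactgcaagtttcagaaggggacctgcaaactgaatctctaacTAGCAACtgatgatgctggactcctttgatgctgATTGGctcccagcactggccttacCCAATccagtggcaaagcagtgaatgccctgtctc
H2-Aa: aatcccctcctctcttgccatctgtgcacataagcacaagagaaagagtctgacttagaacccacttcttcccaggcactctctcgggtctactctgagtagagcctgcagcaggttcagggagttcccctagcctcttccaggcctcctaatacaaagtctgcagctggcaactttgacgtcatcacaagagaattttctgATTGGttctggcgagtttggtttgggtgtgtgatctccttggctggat
H2-Eb1 held TAGCAAC followed by a CCAAT box on each strand, and H2-Aa held 1 CCAAT box. TAGCAAC stood in 3 of the 32 members with an entry, H2-Eb1, H2-Eb2 and H2-Ob, and in 3.71% of all genes. Only this spelling was counted. The H2-Aa window holds TGGCAAC before its CCAAT box, which differs from TAGCAAC in 1 base. The lack of a match in H2-Aa may thus be a matter of spelling alone.

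The genes of class II peptide exchange, H2-DMa, H2-DMb1 and H2-DMb2 and their inhibitory relatives H2-Oa and H2-Ob, were not called. H2-DMa read 2.84 and 4.71 in LTKO FST288 livers, against 2.82 and 2.93 in LTKO GFP livers and 2.61 to 3.03 on HFD arrays. Replicate 2 stood alone, and replicate 1 lay within the range of the other groups. H2-DMb1 read 2.77 and 3.56 and H2-DMb2 2.59 and 3.25 in LTKO FST288 livers, against 2.38 and 2.46 and against 2.29 and 2.12 in LTKO GFP livers. Ciita, the class II transactivator, read 3.51 and 4.12 in LTKO FST288 livers, against 3.67 and 3.85 in LTKO GFP livers, 3.44 to 3.62 in HFD FST288 livers and 3.41 to 3.53 in HFD GFP livers. Replicate 2 was again the highest array, and no change of Ciita was called.

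H2-Ke6 has no part in presentation and serves here as a gene of the same region. It read 6.51 and 6.59 in LTKO FST288 and 6.93 and 6.64 in LTKO GFP livers, against 5.96 to 6.10 in HFD FST288 and 5.93 to 6.18 in HFD GFP livers. Each LTKO array was above each HFD array. The change was 0.77 ± 0.12 (SE) under GFP (adjusted p = 0.00078) and 0.51 ± 0.12 under Fst288 (adjusted p = 0.0156). The second call was lost without HFD FST288 replicate 3 (0.47, adjusted p = 0.0644), LTKO FST288 replicate 1 (0.54, adjusted p = 0.052) or LTKO FST288 replicate 2 (0.47, adjusted p = 0.108), and without both acinar-high arrays (0.45, adjusted p = 0.254).

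Position was set beside these changes, since 39 of the 45 members lie on chromosome 17. Of the other 146 measured genes between Tapbp and H2-M2 in the order of the RefSeq annotation, 14 were called in LTKO against HFD livers under GFP, 11 higher and 3 lower, or 9.59%, below the 13.1% of all genes. Among the members on chromosome 17, 7 of 39 were called. Of the 6 on other chromosomes none was, though Erap1, Nlrc5 and Psmb10 had an unadjusted p under 0.05. In that comparison 25.2% of all genes did. With Fst288 in LTKO livers, none of the 146 was called, beside 0.167% of all genes. The unadjusted p was under 0.05 in 23 of them, against 9.98% of all genes. Changes in that comparison had a median of -0.06 for these neighbours, 0.29 for the members on chromosome 17 and 0.41 for the 6 on other chromosomes.

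The 2 arrays of LTKO FST288 livers were set apart because they disagreed more over these genes than over the rest of the array. LTKO FST288 replicate 2 was the highest of the 10 arrays for 26 of 45 members, or 57.8%, against 10.4% of all genes. It exceeded replicate 1 by more than 0.5 in 20 members, or 44.4%, against 4.27% of all genes, and fell short of it by more than 0.5 in H2-M10.5 alone. The median difference, replicate 2 minus replicate 1, was 0.37 over the members and 0.003 over all genes. The LTKO GFP arrays, taken the same way, differed by a median of -0.06 over the members, with 3 members over 0.5 and 5 under -0.5. The largest differences between the LTKO FST288 arrays were 2.30 in H2-Aa, 2.16 in H2-Ab1, 1.87 in H2-DMa, 1.48 in Psmb9, 1.47 in H2-M2, 1.43 in Tap1 and in Psmb8, and 1.42 in H2-Eb1. H2-Q10 ran the other way at -0.45, and H2-Ke6 at 0.07 and H2-T24 at 0.02 hardly differed. These are 2 single arrays, so their difference has no replicate check.

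**Figure D3:**
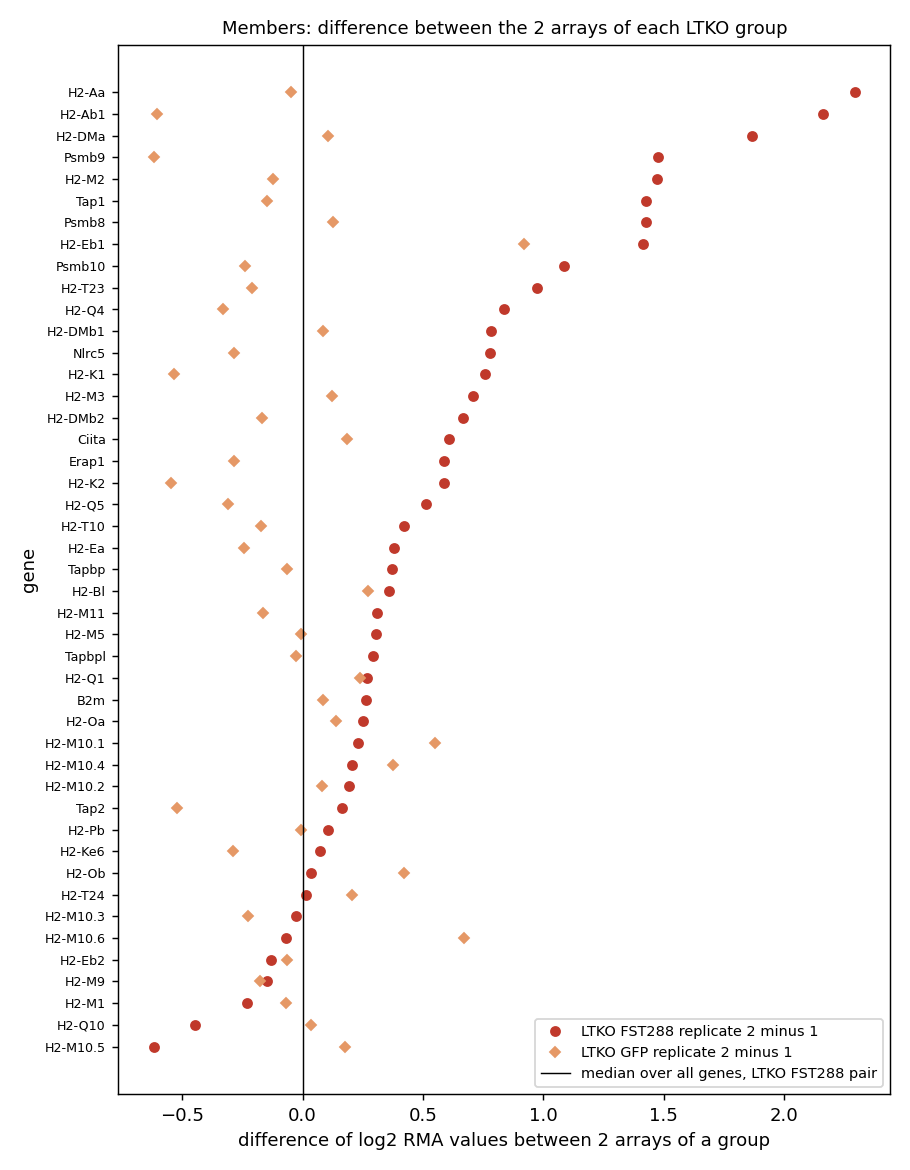
Difference of log2 values between the 2 arrays of a group for each of the 45 members: circles, LTKO FST288 replicate 2 minus replicate 1; diamonds, LTKO GFP replicate 2 minus replicate 1. The vertical line is the median of all genes for the LTKO FST288 pair. Circles reach 2.30 for H2-Aa, while diamonds stay between -0.62 and 0.92.

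Both LTKO FST288 replicates nevertheless lay on the same side of the LTKO GFP arrays in several members. In 18 of 45 members both LTKO FST288 arrays were above both LTKO GFP arrays, or 40.0%, against 16.8% of all genes and the 0.167% called. In 14 of 45 both were above all 3 HFD FST288 arrays, or 31.1%, against 18.8% of all genes and the 10.3% called. Both LTKO GFP arrays were under all 3 HFD GFP arrays in 13 members, or 28.9%, against 19.2% of all genes, and above them in 4, or 8.89%, against 21.1%.

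Other genes of the pathway were read from lists, whose counts stand beside 6.69% of all genes called higher and 6.4% lower in LTKO against HFD livers under GFP, and 5.05% and 5.29% under Fst288. Of 10 class II processing genes, 5 were higher in LTKO than in HFD livers under Fst288: Lgmn, an endosomal protease, by 0.95 ± 0.15, Ifi30, a thiol reductase of the endosome, by 0.94 ± 0.18, Flot1 by 0.66 ± 0.15, Cd9 by 0.79 ± 0.22 and Ctss, the protease that trims the invariant chain, by 0.96 ± 0.28 (SE, adjusted p from 0.000993 to 0.0461). Ctss read 7.36 and 8.74 in LTKO FST288 livers, against 6.91 to 7.25 in HFD FST288 livers, with replicate 2 again the higher. Under GFP 1 of the 10, Ctsd, was higher, and it was also the 1 called with Fst288 in HFD livers. Of 14 further class I loading and peptide supply genes, 5 were higher and 2 lower in LTKO than in HFD livers under GFP, and 1 higher and 5 lower under Fst288. Calr, a chaperone of class I loading, was lower by -0.42 ± 0.10 under GFP and -0.61 ± 0.10 under Fst288 (adjusted p = 0.0126 and 0.00102). Psmb5, the constitutive counterpart of Psmb8, was higher by 0.41 ± 0.10 under GFP (adjusted p = 0.0165). Of 10 class I-like genes outside the H2 names, 2 were higher and 2 lower under GFP and 1 lower under Fst288. Mr1, which presents vitamin B metabolites to MAIT cells, was lower by -1.84 ± 0.17 under GFP (adjusted p = 9.59e-06) and -1.29 ± 0.17 under Fst288 (adjusted p = 0.000228).

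Of 14 factors that act at MHC promoters, 2 were lower in LTKO than in HFD livers under GFP, and 2 lower and 1 higher under Fst288, beside 13.1% and 10.3% of all genes called. Irf2, a factor that binds the interferon-stimulated response element, was lower by -1.24 ± 0.10 under GFP (adjusted p = 2.99e-06) and -1.32 ± 0.10 under Fst288 (adjusted p = 1.6e-06). It read 6.44 and 6.57 in LTKO FST288 and 6.33 and 6.38 in LTKO GFP livers, against 7.68 to 7.94 in HFD FST288 and 7.56 to 7.66 in HFD GFP livers. Each LTKO array was below each HFD array. Nfyb, a subunit of NF-Y, was lower by -0.68 ± 0.12 under GFP (adjusted p = 0.00151), and Rfx5, which binds the X box, was higher by 0.82 ± 0.13 under Fst288 (adjusted p = 0.000824). Irf1 read 4.65 and 5.88 in LTKO FST288 livers, against 4.69 and 4.78 in LTKO GFP livers and 4.13 to 4.70 on HFD arrays, and was not called.

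Interferon genes were read over the same arrays. Of 21 measured genes of the interferon-gamma pathway, 14 were highest on LTKO FST288 replicate 2 and 19 were higher there than on replicate 1. Their median was 5.67 on replicate 2 and 4.30 on replicate 1, against 4.03 and 4.38 on the LTKO GFP arrays and 3.80 to 4.11 on the HFD arrays. Igtp, an interferon-induced GTPase, read 5.94 and 9.63 in LTKO FST288 livers, against 5.57 and 5.07 in LTKO GFP livers and 5.32 to 5.77 on HFD arrays. Cxcl9, a chemokine for T cells, read 5.82 and 9.12 in LTKO FST288 livers, against 5.95 and 5.34 in LTKO GFP livers and 6.77 to 7.29 on HFD arrays; both genes were picked after their values were seen. None of the 21 was called with Fst288 in LTKO livers, where 12 had an unadjusted p under 0.05, against 9.98% of all genes. The part of this pathway in the members' values was not tested. Ifng, the gene of interferon-gamma, was below the median of all named genes, 3.10 to 3.17 by array, on all 10 arrays. Under Fst288, 2 of the 21 were higher and 1 lower in LTKO than in HFD livers, beside 5.05% and 5.29% of all genes. In LTKO against HFD livers under GFP, Gbp7 and Iigp1 were lower, by -1.90 ± 0.39 and -0.90 ± 0.24. Of 16 type I interferon targets, 4 were lower in that comparison, Bst2, Ifit1, Rtp4 and Irf7, by -2.00 to -0.76, and 3 under Fst288. None was higher.

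Markers of antigen-presenting and other cells were set beside the members. In bulk liver, more cells of a type and more RNA per cell cannot be told apart. All 12 Kupffer cell and macrophage markers were above the median of all named genes on 1 array or more and 11 were highest on LTKO FST288 replicate 2. Their summed linear intensity was 1897 on LTKO FST288 replicate 2 and 892 on replicate 1, against 736 to 796 in LTKO GFP, 596 to 717 in HFD FST288 and 577 to 857 in HFD GFP livers. Of the 12, 9 were higher in LTKO than in HFD livers under Fst288, among them Marco by 2.53 ± 0.43 and Cd5l by 1.29 ± 0.26 (SE, adjusted p = 0.00142 and 0.00512), and none was called with Fst288 in LTKO livers. Marco, a scavenger receptor of macrophages, read 5.48 and 7.59 in LTKO FST288 livers, against 4.82 and 4.40 in LTKO GFP livers, 3.97 to 4.05 in HFD FST288 and 4.31 to 5.19 in HFD GFP livers. The 5 pan-leukocyte genes summed to 155 and 321 in LTKO FST288 livers, against 152 and 132 in LTKO GFP livers, 111 to 129 in HFD FST288 and 133 to 175 in HFD GFP livers. The part of these markers in the class II values was not tested.

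Of 8 dendritic cell markers, 2 were higher in LTKO than in HFD livers under Fst288 and 1 under GFP. Cd209a was called in both, by 1.54 ± 0.16 and 1.47 ± 0.16, and read 8.10 and 8.34 in LTKO FST288 and 8.08 and 8.11 in LTKO GFP livers, against 6.36 to 6.99 on HFD arrays. The dendritic cell markers Flt3, Xcr1, Siglech and Ccr9 were below the median of all named genes on all arrays. The 8 summed to 318 and 374 in LTKO FST288 and 314 to 324 in LTKO GFP livers, against 136 to 160 in HFD FST288 and 129 to 173 in HFD GFP livers. Cd209a carried this difference: the other 7 summed to 44 and 49 in LTKO FST288 and 43 to 48 in LTKO GFP livers, against 40 to 44 in HFD FST288 and 46 to 47 in HFD GFP livers. Of the 7 B cell markers, Ms4a1, Cd79a, Pax5, Fcer2a and Cr2 were below that median on all arrays, as were 6 of 7 natural killer cell and 7 of 7 neutrophil markers. Of 8 T cell markers, Cd3e and Cd3g were higher in LTKO than in HFD livers under Fst288, and none was called lower. Cd3g read 2.96 and 4.51 in LTKO FST288 livers, against 2.55 to 2.72 in HFD FST288 livers. Cd4 and Cd2, picked after their values were seen, went the other way. Cd4 read 3.39 and 3.31 against 3.51 to 4.21, and Cd2 read 2.74 and 2.84 against 2.96 to 3.09. Cd3d, Cd8a and Cd2 were below the median of all named genes on all arrays. Sums ran from 45 to 50 for B cells in LTKO FST288 livers, against 46 to 47 in LTKO GFP, 38 to 43 in HFD FST288 and 39 to 44 in HFD GFP livers. For T cells they were 64 and 83 in LTKO FST288, against 56 to 57 in LTKO GFP, 59 to 67 in HFD FST288 and 54 to 62 in HFD GFP livers. None of the 4 measured monocyte markers was called. They summed to 21 and 52 in LTKO FST288 livers, against 21 to 22 in LTKO GFP, 19 to 22 in HFD FST288 and 17 to 21 in HFD GFP livers, and without Ly6c2, which was picked after its values were seen, to 15 and 18 in LTKO FST288 livers, against 12 to 16 on the other arrays. Of 7 stellate cell markers, 3 were higher in LTKO than in HFD livers under Fst288 and none lower, and under GFP 1 was higher and Lrat lower, by -0.50 ± 0.15. Of 8 sinusoidal endothelial markers, Kdr was higher under Fst288, by 0.37 ± 0.10, and Lyve1 lower in both, by -0.82 ± 0.17 under Fst288 and -1.005 ± 0.17 under GFP (SE).

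**Figure D4:**
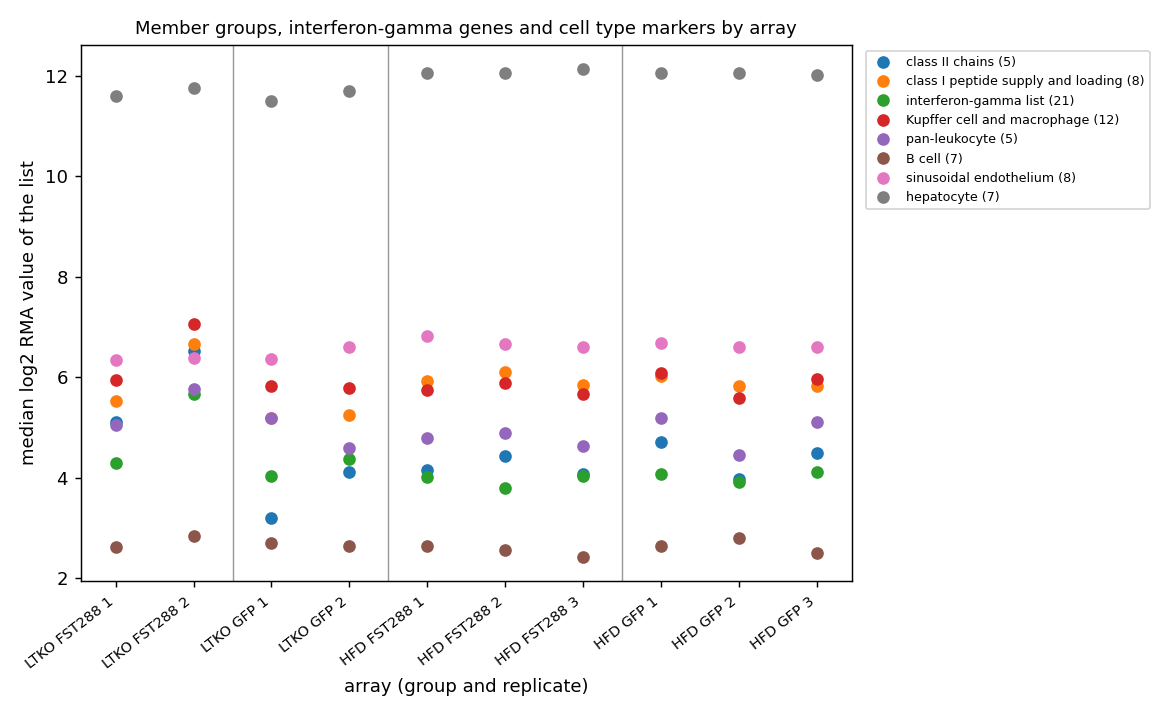
Median log2 RMA value on each array of the class II chains, the class I peptide supply genes, the interferon-gamma list and markers of 5 cell classes, with the number of genes in the legend and groups in the order LTKO FST288, LTKO GFP, HFD FST288, HFD GFP. On LTKO FST288 replicate 2 the class II, peptide supply, interferon-gamma, pan-leukocyte and macrophage medians are all at their highest, as is the low B cell median, while the hepatocyte and endothelial medians are not.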

How the data were processed

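RNA of 10 mouse liver samples was measured on Affymetrix whole-transcript arrays, 1 array per sample. The deposited values are log2 intensities from robust multi-array averaging in Affymetrix Expression Console, per the submitters' processing notes; the log base was read from that method and the range of the values. Genome build and probe annotation are not given in the sources used here. Of 41345 transcript clusters, 23521 were listed with 1 symbol, 1814 with several and 16010 with none, and the brightest cluster stood for each of 22180 genes. The precision is limited by the number of arrays.

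Means of the 4 groups were fitted to all genes with limma 3.58.1 in R 4.3.3 (lmFit, eBayes with an intensity trend, 6 residual degrees of freedom), with 5 contrasts, Benjamini-Hochberg adjustment over all genes and a call at an adjusted p under 0.05. The fit was tested on simulated data that had the same spread in each group. Known changes were set only for Fst288 in HFD livers and for LTKO against HFD livers under GFP. The simulation thus does not cover a group that varies more than the others, as LTKO FST288 did in several members. In 18 further fits the settings were varied one at a time, which left out each array in turn, added the replicate number as a block, or changed normalization, dim genes, trend, weights, clusters or the groups fitted; 2 more, on the acinar markers, were added after seeing the data. Same-numbered arrays had correlated deviations of -0.07 to 0.03, so the numbers were not taken as pairs. The members and lists were chosen with earlier results of these data known. Any member could be named; per-array values were given for the leading class I, class II and peptide supply genes and all called members, and list genes were named where called (at most 4 per list and comparison by smallest p, or with their count). Irf1, Rfx5, Ctss, Calr and Psmb5 were always named.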

Additional observations from a re-analysis of the deposited data

Results flagged for a closer look

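The change with Fst288 differed between LTKO and HFD livers in 2 members by the test of the difference itself (limma, adjusted over all genes). Over all genes, 0.216% were called. For H2-Q4 the difference, LTKO minus HFD, was 1.66 (adjusted p = 0.0348), with both LTKO FST288 arrays above both LTKO GFP arrays and all 3 HFD FST288 arrays below all 3 HFD GFP arrays. For H2-T23 it was 1.62 (adjusted p = 0.0495), with both LTKO FST288 arrays above both LTKO GFP arrays and overlapping HFD groups. The outcome for both rests on 2 arrays per LTKO group. Neither call held when any 1 of the HFD GFP arrays was left out, or with the replicate number as a block. With the mean of its 2 clusters, the H2-Q4 difference was 0.82 and not called. Its change in HFD livers was then 0.0807, so the order of the HFD arrays given above is that of the brighter cluster.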

How the results depend on the processing

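Leaving out 1 array at a time, the members called with Fst288 numbered 0 to 0 in HFD livers and 1 to 14 in LTKO livers. In LTKO against HFD livers they numbered 6 to 12 under GFP and 3 to 11 under Fst288, and for the difference of the Fst288 changes 0 to 12. Fitting only the groups compared gave 1 member in HFD livers, beside 1.85% of all genes, and 0 in LTKO livers, where no gene was called. In LTKO against HFD livers under GFP it gave 12, beside 11.5% of all genes. With Fst288 in LTKO livers, the count was 1 with no intensity trend, beside 0.0721% of all genes, and 0 with all clusters tested, beside 0.0363% of all clusters. No call held there without both acinar-high arrays, which alters only the spread and degrees of freedom of that comparison. Without the acinar-high arrays, H2-Ab1 and H2-T10 kept their calls in LTKO against HFD livers under Fst288, and calls over all genes became fewer. With the acinar covariate the count there was 2, beside 5.08% of all genes. For the difference of the changes it was 0 with no intensity trend, the mean of clusters, all clusters tested, the acinar-high arrays left out, the acinar covariate or the replicate block. The replicate block left 0, 3, 7 and 4 members in the other 4 comparisons, beside 0.825%, 0.113%, 11.2% and 8.37% of all genes. Some values changed sign. In HFD livers H2-Q4 was 0.0807 with the mean of clusters, and H2-T23 ran from -0.158 to 0.0177 without 1 array. B2m in LTKO livers ran from -0.0108 to 0.253, and H2-T23 in LTKO against HFD livers under Fst288 from -0.864 to 0.110, the ends being set by the LTKO FST288 array left out; the lower end was called (adjusted p = 0.00339). Psmb8 in that comparison was called in both directions, 0.762 without LTKO FST288 replicate 1 and -0.666 without replicate 2. Over all genes, the calls with Fst288 ran from 80 to 307 in HFD livers and 21 to 237 in LTKO livers without 1 array, and from 6 to 411 and 0 to 38 under the other alternatives. For the difference of the changes they ran from 11 to 266 and from 1 to 63. In LTKO against HFD livers the calls over all genes also varied between fits. Apart from the changes that follow from fewer arrays or more clusters, the cause was not tested. Dim members near the array median limit what could be detected.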

Other observations

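Of the 7 clusters listed with several symbols, an H2- symbol among them, 3 were called in a fit over all 41345 clusters. Cluster 17344593 read 5.58 and 6.73 in LTKO FST288 and 3.33 and 3.08 in LTKO GFP livers, against 7.38, 7.12 and 7.29 in HFD FST288 and 7.06, 6.73 and 7.19 in HFD GFP livers. It was lower in LTKO than in HFD livers under GFP by -3.79 (limma, adjusted p = 8.31e-05) and higher with Fst288 in LTKO livers by 2.95 (adjusted p = 0.0174), comparisons that share the LTKO GFP arrays. Clusters 17337120 and 17337122 were lower in LTKO than in HFD livers under GFP by -1.79 and -2.62 (adjusted p = 0.00932 and 0.024). No gene is named for them here.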
